A study of Mus musculus with 6 samples.

Results

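The interstitial matrix genes measured here encode the fibrous collagens, the adhesive glycoproteins, the elastic fibre and proteoglycan components and the enzymes that build or cut the matrix between cells. The set holds 38 genes of 19057 named on the array, chosen as a list of gene symbols, with every probe carrying one of those symbols or an older name of the same Entrez gene. It was split into 27 structural genes and 11 genes of proteases, protease inhibitors and an ADAMTS-like protein. The rule uses no measured value, but the list was chosen with earlier results of these data known.

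RNA was taken by laser microdissection from E10.5 mouse embryos of a mixed (FVB; 129) background and hybridized to 6 Illumina bead arrays, with 3 for WT tissue and 3 for tissue of CBP/p300 double conditional knockouts (DCKO). According to the methods, all embryos carried floxed alleles of both acetyltransferase genes, CBP and p300 (CBP/p300 fl/fl). The DCKO embryos also carried Pax6-Cre, a transgene with regulatory sequence of Pax6 that was built for Cre activity in the ectoderm giving rise to lens and cornea, while the embryos labelled wild type lacked it. The tissue labels differ between the genotypes, where the WT arrays are called lens placode and the CBP/p300-/- arrays surface ectoderm, so genotype and the labelled tissue cannot be told apart. The sources also differ on the replicates: the methods describe 3 embryos of each genotype, whereas the labels describe RNA of 3 embryos that was pooled by genotype and then amplified in triplicate. Should each trio come from 1 pool, the p-values measure technical spread alone.

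The extracellular matrix beneath an epithelium is laid down as secreted collagen chains, which are folded with the help of chaperones, trimmed and crosslinked outside the cell, and as glycoproteins and hyaluronan that set adhesion and tissue hydration. Metalloproteases of the MMP and ADAMTS families and serine proteases of the HtrA family cut matrix proteins and the growth factors bound to them, and TIMP proteins inhibit many of the metalloproteases. During lens induction the surface ectoderm and the optic vesicle lie against each other across a layer of extracellular matrix that holds fibronectin and collagens, and the ectoderm thickens into the placode before it invaginates.

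The promoters of 24 of the 38 members were matched by Entrez gene in a RefSeq table of assembly GRCm38.p6. Those of 4 genes that passed the test are printed here because CBP and p300 are coactivators that are recruited to promoters and enhancers. Each runs 5′ to 3′ on the gene's own strand, within the 250 bases before an annotated start, and bases inside the annotated gene are left out. Capitals mark the letters TATAAA (the TATA box), CCAAT (the CCAAT box) and GGGCGG (the GC box), searched on both strands, and the marked matches do not overlap each other.
Tnc, chr4:64047016-64047265, minus strand: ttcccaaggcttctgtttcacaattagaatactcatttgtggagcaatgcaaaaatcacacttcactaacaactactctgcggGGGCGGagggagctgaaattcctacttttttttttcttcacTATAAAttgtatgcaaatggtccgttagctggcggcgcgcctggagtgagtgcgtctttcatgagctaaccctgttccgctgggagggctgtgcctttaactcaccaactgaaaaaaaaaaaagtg
Col1a2, chr6:4505368-4505617, plus strand: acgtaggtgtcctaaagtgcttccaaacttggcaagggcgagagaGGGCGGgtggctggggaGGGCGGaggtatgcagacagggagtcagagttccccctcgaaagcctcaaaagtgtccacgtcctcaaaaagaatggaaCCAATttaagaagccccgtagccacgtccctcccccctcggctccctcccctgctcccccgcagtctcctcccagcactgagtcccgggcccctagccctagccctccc
Htra3, chr5:35679814-35680030, minus strand: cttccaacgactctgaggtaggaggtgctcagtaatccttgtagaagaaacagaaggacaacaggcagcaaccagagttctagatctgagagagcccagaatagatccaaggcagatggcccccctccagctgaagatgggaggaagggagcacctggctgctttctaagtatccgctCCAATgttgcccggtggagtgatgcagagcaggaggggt
Adamtsl4, chr3:95687928-95688167, minus strand: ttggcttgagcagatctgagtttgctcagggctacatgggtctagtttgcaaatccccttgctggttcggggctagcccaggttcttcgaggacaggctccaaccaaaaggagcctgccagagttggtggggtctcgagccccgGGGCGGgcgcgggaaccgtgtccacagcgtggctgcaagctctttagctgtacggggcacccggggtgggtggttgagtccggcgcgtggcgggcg
The window of Adamts18 lies inside the gene as annotated and is not shown. The Tnc sequence held 1 TATAAA, found in 4 of the 24 matched members (Tnc, Adamts1, Col3a1 and Postn) and in 12.4% of all 32851 promoters of the table. CCAAT was found in 10 matched members and 33.8% of all promoters, and GGGCGG in 19 matched members and 32.7% of all promoters. A member with several windows was counted if any held the letters. The cyclic AMP response element TGACGTCA (1.55% of promoters) and the Maf half-site TGCTGAC (3.81%) were found in 0 members, and the AP-1 site TGANTCA (6.75%) in 1, Col6a1. These are matches of letters and not measured binding sites.

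Between 21 and 26 of the 36 members with a probe were detected on each array (a detection p-value under 0.05 against the array's negative controls), and 25 members had a probe that was detected on at least 3 arrays and could be tested. Each gene is given by its brightest tested probe. Levels are log2 values after background correction and quantile normalization, differences are DCKO minus WT on the same scale, and calls were made in limma at p under 0.05 after Benjamini-Hochberg adjustment over all 19552 tested probes. Of the 25 members, 5 fell (Tnc, Vit, Htra3, Adamts18 and Adamtsl4), 1 rose (Col1a2) and 19 did not pass. Among all 10123 genes tested by their brightest probe, 2.78% were called lower and 2.10% higher. Over probes, 7 of the 46 tested member probes fell and 1 rose, against 2.81% and 1.77% of all tested probes (4.58% in either direction). The groups did not overlap for 14 members, 11 lower and 3 higher in DCKO, against 14.6% and 14.4% of all genes. The median log2 fold change was -0.45 over the 25 members and 0.01 over all genes. These counts and medians describe members that were chosen with earlier results of these data known and that passed the detection filter. They support nothing further, also because 4 of the 6 called members (Vit, Col1a2, Htra3 and Adamtsl4) were detected in 1 genotype only and could pass that filter only by differing. With these 4 at their bounds the median was again -0.45.

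**Figure D1:**
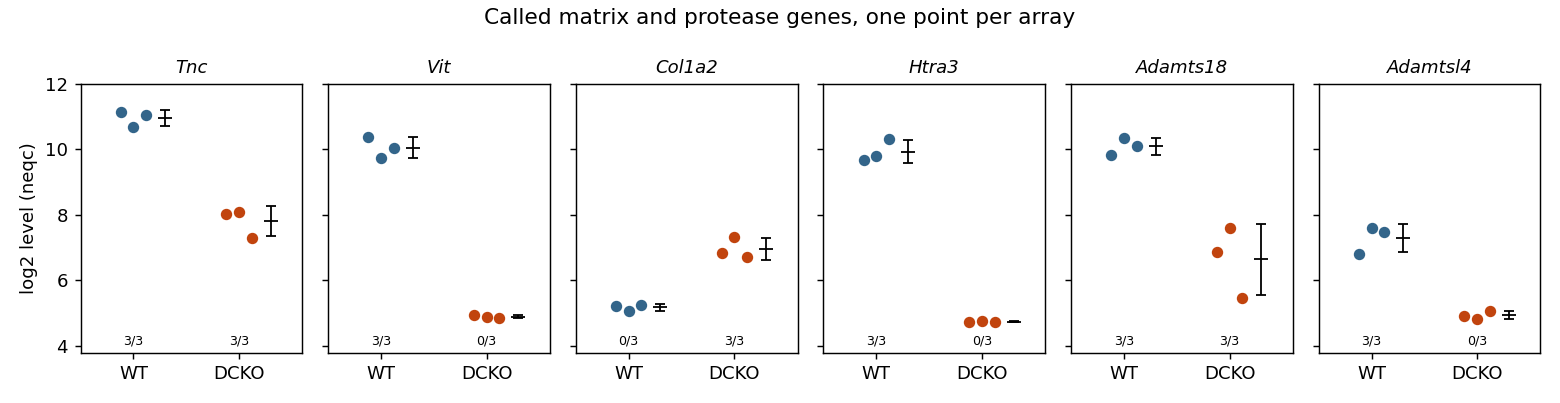
Log2 level on each array of the 6 called members, with WT in blue, DCKO in orange, the mean ± SD beside the points and, at the bottom, the arrays of 3 on which the probe was detected. Htra3, Vit and Adamtsl4 were at background on all DCKO arrays and Col1a2 on all WT arrays, while Tnc and Adamts18 were still detected on all 6.

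Of the genes for adhesive glycoproteins and hyaluronan synthesis, 5 were tested and 2 fell, those of tenascin C and vitrin. Tnc (Entrez gene 21923) encodes tenascin C, a large hexameric glycoprotein that modulates adhesion to fibronectin and is expressed widely in embryos. Its log2 levels were 11.13, 10.66 and 11.03 in WT and 8.04, 8.10 and 7.28 in DCKO. Every DCKO array thus lay far below every WT array, although the probe remained detected on all of them. The fold change was 8.79-fold lower (log2 -3.14, SE 0.30, adjusted p = 0.00502 in limma). A second Tnc probe read nearly the same, at 11.00, 10.43 and 10.88 in WT and 7.82, 7.96 and 7.10 in DCKO (log2 -3.14, SE 0.31, adjusted p = 0.00533). The other tested Tnc probes were dim, each detected on 4 of 6 arrays, and did not pass (log2 -0.11 and -0.75, adjusted p = 0.932 and 0.327).

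Vit (Entrez gene 74199) encodes vitrin, a matrix protein with von Willebrand factor A domains. In WT its log2 levels were 10.37, 9.72 and 10.04. In DCKO they were 4.96, 4.88 and 4.85, and the probe was detected on 0 of 3 arrays. Because the DCKO arrays hold only background, the fold is a bound, which sets the WT mean against the mean of each DCKO array's lowest detected signal, or of the probe's own value where that is higher. By this bound Vit fell at least 24.5-fold (adjusted p = 0.000518). Each bound in the text holds for the background correction used, and the folds of the members were smaller without it.

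Has2 encodes the main hyaluronan synthase of the embryo. It was at 9.29, 9.40 and 8.74 in WT and 8.45, 7.52 and 7.60 in DCKO, so that the highest DCKO array lay just below the lowest WT array. The difference of -1.29 (SE 0.34) did not pass (adjusted p = 0.0945). Vcan, which encodes versican, the hyaluronan-binding proteoglycan, had 4 tested probes with differences of -0.76, -0.47, -0.34 and -0.49. Its groups were separate only for the brightest, and none passed (adjusted p = 0.218 to 0.799).

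Fibronectin, the glycoprotein to which many integrins bind, was measured by 4 tested probes that did not read alike. The brightest Fn1 probe was at 9.92, 10.20 and 10.14 in WT and 9.38, 10.33 and 10.36 in DCKO, with a difference of -0.06 (SE 0.33, adjusted p = 0.944). Here 2 DCKO arrays were above all WT arrays and 1 was below. Another Fn1 probe, chosen after its values were seen, was at 9.82, 9.86 and 9.87 in WT and 8.47, 9.01 and 9.20 in DCKO (difference -0.96, SE 0.26, adjusted p = 0.0984). The remaining Fn1 probes differed by -0.50 and -0.38. No Fn1 probe passed, and the groups were separate for 2 of the 4. Postn, which encodes periostin, an adhesive protein of collagen-rich tissues, was detected on 0 arrays.

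Among the collagens the only call was an increase. Col1a2 (Entrez gene 12843) encodes the alpha 2 chain of type I collagen, the main fibrillar collagen of mesenchyme. The WT arrays were at 5.23, 5.07 and 5.26, all undetected, and the DCKO arrays at 6.83, 7.34 and 6.70, all detected. The increase was at least 2.87-fold (adjusted p = 0.0164). The call was lost without any 1 of the WT arrays (adjusted p = 0.0715, 0.0769 and 0.0723 with replicates 1, 2 and 3 of WT left out in turn). Its partner chain, Col1a1, was detected on 1 array and could not be tested, and Col3a1, which encodes type III collagen, was detected on 2.

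Genes known to mark periocular mesenchyme and neural crest were read beside Col1a2. Of 9 such markers 8 had a probe and 5 were tested, of which 1 rose, 1 fell and 3 did not pass. Prrx1, a mesenchymal homeobox gene, rose at least 2.19-fold (adjusted p = 0.0465), and its brightest probe was undetected on all WT arrays. Foxc1 and Tfap2b, transcription factor genes of that tissue, had differences of 1.47 and 1.56 and did not pass (adjusted p = 0.157 and 0.127), nor did Foxd3, a neural crest gene (0.06, adjusted p = 0.925). Pdgfra, the PDGF receptor gene of mesenchyme and of lens, fell (log2 -3.60, adjusted p = 0.00351). Twist1 was detected on 0 WT and 2 DCKO arrays and was not tested. Of the 5 tested markers 4 were above 0 and the median difference was 1.45, or 1.13 with Prrx1 at its bound. The summed linear level of the list, of which Pdgfra made up most in WT, lay between 4582 and 4898 in WT and between 1085 and 1849 in DCKO. The part of these markers in the Col1a2 result was not tested. In these bulk samples, fewer cells of a type and less RNA per cell cannot be told apart.

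The differences of the type II, V, IX and XI collagen genes were of both signs and none passed. Col2a1 encodes type II collagen, which early embryonic epithelia also make. Its brightest probe was at 10.00, 10.29 and 9.82 in WT and 10.45, 11.25 and 10.94 in DCKO (difference 0.84, SE 0.29, adjusted p = 0.165). All 3 tested Col2a1 probes had every DCKO array above every WT array. The other differences were 0.85 and 1.54, with adjusted p = 0.191 and 0.088. Col9a1, which encodes a chain of type IX collagen that decorates type II fibrils, was at 8.67, 8.15 and 8.73 in WT and 8.27, 4.92 and 5.78 in DCKO. Of the DCKO arrays 1 lay within the WT range, and the difference of -2.20 (SE 0.82) did not pass (adjusted p = 0.195). Without that array, DCKO replicate 1, the difference was -3.12 (adjusted p = 0.0201), whereas it was -1.49 without DCKO replicate 2 and -1.90 without DCKO replicate 3 (adjusted p = 0.335 and 0.333). A dimmer Col9a1 probe had a difference of 0.07 (adjusted p = 0.913).

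Col5a1 and Col5a2 encode chains of type V collagen, which nucleates type I fibrils. Col5a1 was at 8.58, 9.32 and 9.64 in WT and 7.57, 6.56 and 9.31 in DCKO, a wide spread with overlap (difference -1.37, SE 0.70, adjusted p = 0.336). Col5a2 was at 6.51, 5.38 and 6.12 in WT and 7.53, 6.77 and 6.22 in DCKO (difference 0.84, SE 0.44, adjusted p = 0.347), again with overlap. Col11a1, of the minor fibrillar type XI, had a difference of 0.79 (adjusted p = 0.402). Col6a1, of the microfibrillar type VI, was detected on 1 array.

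Serpinh1 encodes HSP47, the collagen chaperone of the endoplasmic reticulum. Its brightest probe was at 11.34, 11.22 and 11.10 in WT and 10.54, 11.04 and 10.72 in DCKO, with separate groups and a difference of -0.45 (SE 0.23, adjusted p = 0.341). Its other probe had a difference of -0.99 (SE 0.25, adjusted p = 0.0879), also with separate groups. The summed linear level of the collagens and their chaperone overlapped between the genotypes, with a range of 4484 to 4729 for WT against 3755 to 5070 for DCKO.

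Elastic fibre and small proteoglycan genes were mostly at background. Of these 11 genes only Loxl1 and Matn2 were tested. Loxl1 encodes a lysyl oxidase that crosslinks elastin. It was at 7.19, 6.40 and 6.48 in WT and 6.15, 5.91 and 5.20 in DCKO, with separate groups, and did not pass (difference -0.94, SE 0.36, adjusted p = 0.203). Matn2 encodes matrilin 2, an adaptor protein of matrix networks. It was at 11.37, 11.27 and 11.37 in WT and 11.10, 10.53 and 10.71 in DCKO, every DCKO array being below every WT array (difference -0.55, SE 0.24, adjusted p = 0.254).

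No probe was named for Fbn1 or Fbn2, the fibrillin genes. Lox, a second lysyl oxidase gene, Lum (lumican) and Matn4 (matrilin 4) were detected on 0 arrays. Eln (elastin) and Fbln2 (fibulin 2) were detected on 1 array, and the small proteoglycan genes Dcn (decorin) and Bgn (biglycan) on 2, each by its best probe. In all, 13 of the 38 members could not be tested. The 11 of these with a probe had 25 probes, and 10 of their 150 array values were detected, 6 in WT and 4 in DCKO. Background on these arrays limits what can be said of them.

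**Figure D2:**
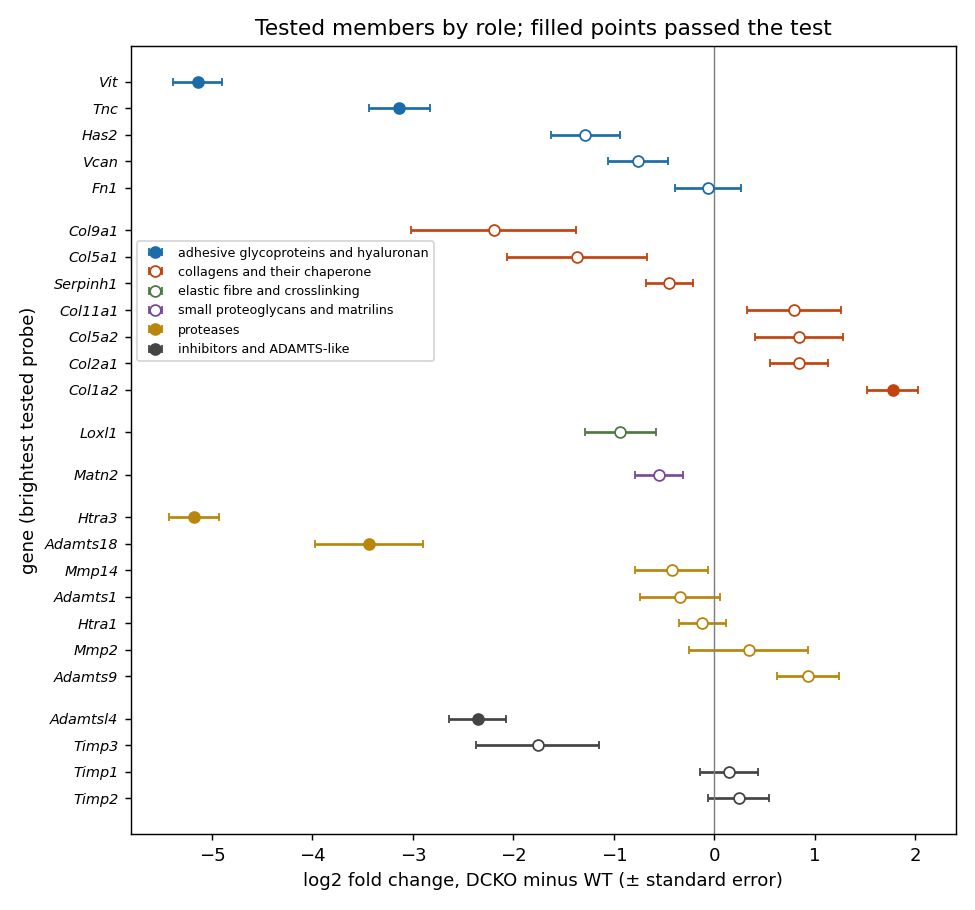
Log2 fold change, DCKO minus WT, with its standard error, for the 25 tested members by role, each by its brightest probe, with filled points for calls. The points of Vit, Htra3, Adamtsl4 and Col1a2 are fitted values against a genotype at background and not measured differences, their folds being bounds. The 19 members that did not pass spread on both sides of 0.

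The protease group held 3 decreases, 0 increases and 8 members that did not pass among 11 tested; at an unadjusted p under 0.05, 4 were lower and 1 was higher, against 21.2% of all 10123 genes in either direction (1066 lower and 1076 higher). When WT replicate 3 was left out, 1 of them, Htra3, was still called. Htra3 (Entrez gene 78558) encodes a secreted serine protease of the HtrA family. It was at 9.67, 9.79 and 10.32 in WT and 4.74, 4.76 and 4.75 in DCKO. The DCKO arrays were all undetected and Htra3 fell at least 22.6-fold (adjusted p = 0.000518). A dimmer Htra3 probe was at 5.58, 5.58 and 5.86 in WT and 4.83, 5.88 and 4.83 in DCKO. It overlapped through 1 DCKO array and did not pass (difference -0.49, SE 0.34, adjusted p = 0.482). Htra1, which encodes the related protease, lay between 5.65 and 6.11 in WT and between 5.57 and 5.88 in DCKO, with a difference of -0.12 (adjusted p = 0.826).

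Adamts18 (Entrez gene 208936) encodes a secreted metalloprotease of the ADAMTS family, and variants of the human gene are linked to eye disease. Its brightest probe was at 9.82, 10.34 and 10.10 in WT and 6.87, 7.60 and 5.48 in DCKO. All DCKO arrays were far below WT, but they differed widely among themselves. It fell 10.8-fold (log2 -3.44, SE 0.54, adjusted p = 0.0224). The second probe, at 8.97, 8.38 and 8.94 in WT and 5.52, 5.23 and 7.63 in DCKO, had separate groups and did not pass (log2 -2.63, SE 0.64, adjusted p = 0.0746). The third, at 6.43, 7.26 and 6.75 in WT and 5.06, 5.25 and 5.47 in DCKO, fell (log2 -1.55, SE 0.29, adjusted p = 0.0386). The call of the brightest probe was lost when replicate 1, 2 or 3 of WT was left out (adjusted p = 0.0782, 0.0955 and 0.0969), and when replicate 1 of DCKO was (adjusted p = 0.0561).

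Adamts1 and Adamts9 encode proteases that cut versican. The brightest Adamts1 probe was at 8.68, 8.32 and 8.90 in WT and 7.61, 9.03 and 8.24 in DCKO, with overlap (difference -0.34, SE 0.40, adjusted p = 0.686). A dimmer Adamts1 probe, chosen after its values were seen, was at 8.95, 9.33 and 8.82 in WT and 7.14, 8.81 and 5.82 in DCKO. Its groups were separate by a very small margin and it did not pass (difference -1.78, SE 0.71, adjusted p = 0.223). Adamts9 was at 7.99, 7.56 and 7.67 in WT and 8.89, 9.00 and 8.12 in DCKO. Among the 11 members of the protease group it was the only one with every DCKO array above WT, and it did not pass (difference 0.93, SE 0.31, adjusted p = 0.155).

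Mmp14 encodes the membrane-type metalloprotease that activates the gelatinase encoded by Mmp2. It was at 8.92, 9.65 and 9.29 in WT and 8.96, 9.37 and 8.25 in DCKO (difference -0.43, SE 0.36, adjusted p = 0.568). Mmp2 was detected on 4 of 6 arrays and had the widest WT spread of the tested members (SD 0.828, n = 3), with a difference of 0.34 (adjusted p = 0.802). For both genes the groups overlapped.

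Adamtsl4 (Entrez gene 229595) encodes an ADAMTS-like glycoprotein without protease activity that binds fibrillin microfibrils, and mutations of the human gene cause displacement of the lens. It was at 6.79, 7.61 and 7.48 in WT and 4.93, 4.83 and 5.07 in DCKO, undetected on all DCKO arrays. The decrease was at least 3.64-fold (adjusted p = 0.00942). This call was lost without WT replicate 3 (adjusted p = 0.0547).

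Of the inhibitors, none passed. Timp3, the inhibitor that binds to the matrix, was at 9.12, 9.38 and 9.01 in WT and 6.02, 8.50 and 7.72 in DCKO. The groups were separate and the DCKO arrays widely spread (difference -1.76, SE 0.61, adjusted p = 0.168). Its other tested probes had differences of -0.70 and -0.73 (adjusted p = 0.61 and 0.228). The probe at -0.73 was undetected on all DCKO arrays, so its fold is a bound, at least 1.32-fold lower. Timp2 and Timp1, which encode soluble inhibitors, had differences of 0.24 and 0.14 (adjusted p = 0.711 and 0.832), and their groups overlapped.

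**Figure D3:**
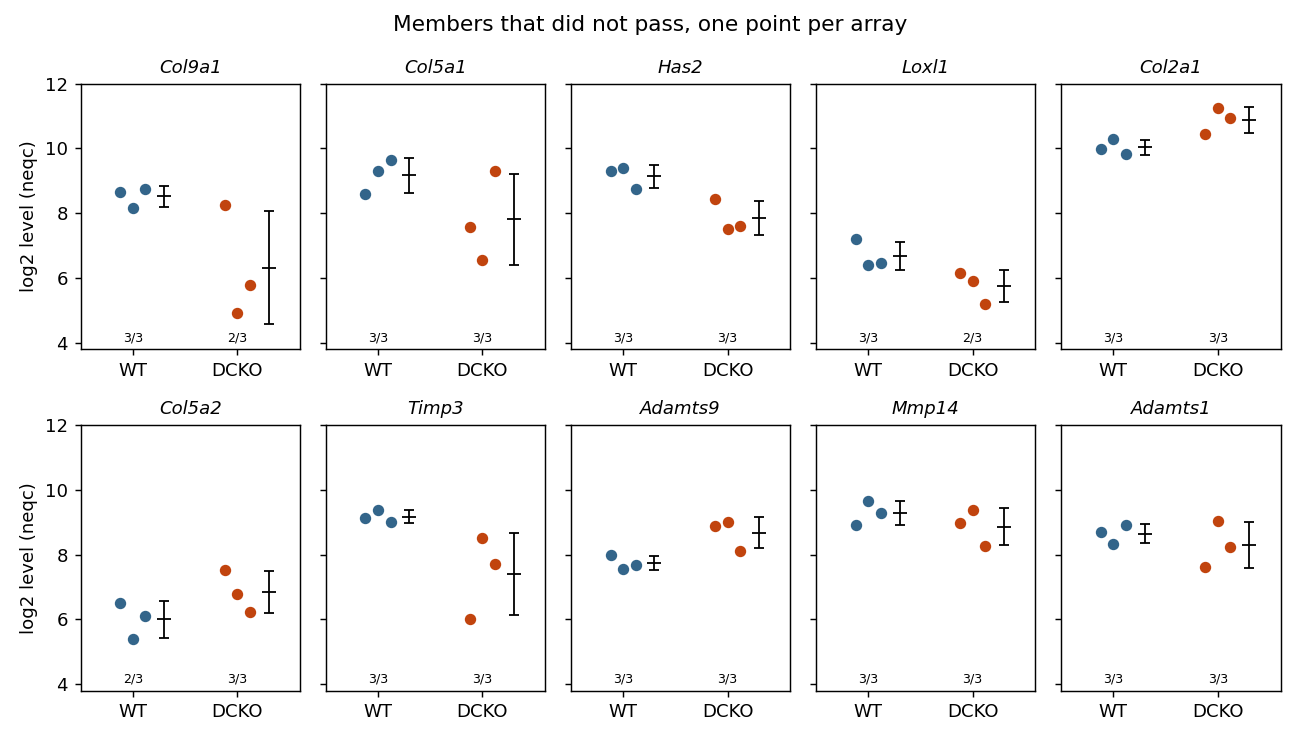
Log2 level on each array of 10 members that did not pass, the 6 structural genes and the 4 protease or inhibitor genes with the largest differences, with the mean ± SD beside the points and the arrays of 3 with detection at the bottom. Col9a1, Col5a1 and Timp3 each had 1 DCKO array far from the others.

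The spread between arrays was larger in DCKO than in WT for 21 of the 25 members, or 84%, and for 64.7% of all tested genes. For members at background in a genotype, that genotype's SD is the spread of undetected values. These SDs were 0.055 for Vit, 0.007 for Htra3 and 0.117 for Adamtsl4 in DCKO, and 0.103 for Col1a2 in WT. The median SD of the members was 0.293 in WT and 0.481 in DCKO (n = 3 each), and over all genes it was 0.303 and 0.411. An SD over 0.5 was reached by 3 members in WT (Col5a1, Col5a2 and Mmp2) and by 11 in DCKO, where Col9a1 had the largest, at 1.74. No single DCKO array was low for all of these genes. DCKO replicate 1 was the lowest for Timp3 and the highest for Col9a1, and DCKO replicate 3 was the lowest for Adamts18 and the highest for Col5a1.

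**Figure D4:**
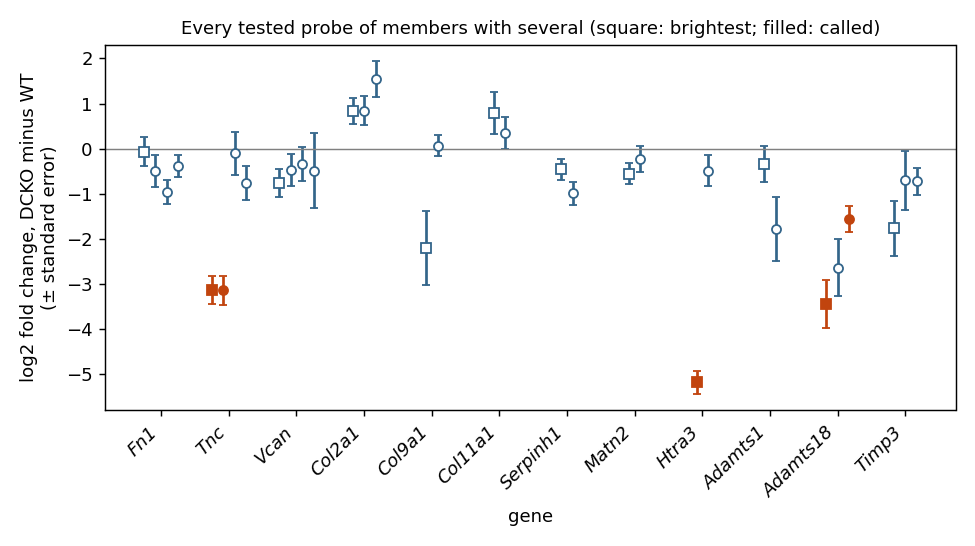
Log2 fold change, DCKO minus WT, with its standard error, for every tested probe of the 12 members that have more than 1, with a square for the brightest and filled symbols for calls. Both bright Tnc probes lie at log2 -3.14 and its dim ones at -0.11 and -0.75, the 3 Adamts18 probes are all below 0, and the 3 Col2a1 probes are all above 0.

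Other genes of the same pathways were read from lists of their roles. Of 24 genes that modify, fold or process collagen, 14 were tested, of which 3 fell, 0 rose and 11 did not pass (median -0.52). Among all genes 2.78% were called lower and 2.10% higher. P3h2, a prolyl 3-hydroxylase gene, was at 11.33, 11.21 and 11.57 in WT and 8.09, 8.94 and 9.94 in DCKO (log2 -2.38, SE 0.47, adjusted p = 0.0441), and its second probe also fell (log2 -2.47, SE 0.31, adjusted p = 0.0108). Colgalt1, a collagen galactosyltransferase gene, fell 2.90-fold, lying between 10.18 and 10.44 in WT and between 8.41 and 9.00 in DCKO (adjusted p = 0.0252). The related Colgalt2 fell at least 2.45-fold (adjusted p = 0.0318). It was undetected on all DCKO arrays and could pass the detection filter only through WT.

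Of 38 other MMP, ADAMTS, HtrA and TIMP-related genes, 14 were tested, with 1 decrease, 1 increase and 12 that did not pass (median 0.34). The shares over all genes were again 2.78% lower and 2.10% higher. Adamts17, of the same family as Adamts18, was at 9.08, 9.49 and 9.08 in WT and 7.46, 7.11 and 7.30 in DCKO (log2 -1.92, SE 0.24, adjusted p = 0.0102). Reck, a membrane-anchored inhibitor of metalloproteases, was at 5.95, 6.56 and 5.37 in WT and 7.70, 7.80 and 7.46 in DCKO (log2 1.70, SE 0.34, adjusted p = 0.0459). The groups were separate for both genes.

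In the hyaluronan and large proteoglycan list, 0 of 5 tested genes passed (limma; at an unadjusted p under 0.05, 0 were lower and 1 was higher). That gene, Hapln1, which encodes the link protein joining hyaluronan to versican, was undetected on all WT arrays, at 4.84, 4.79 and 4.64, and was at 5.95, 8.51 and 8.45 in DCKO (adjusted p = 0.0724). Among further elastic fibre and TGF-beta binding genes 0 of 7 passed in limma, and an unadjusted p under 0.05 was reached by 1, which was lower. Of the other small leucine-rich proteoglycan genes 1 of 10 was tested and did not pass. Among integrins and other matrix receptors 0 of 14 tested genes passed in limma, although 4 were lower with an unadjusted p under 0.05 (1066 of all 10123 genes were), and the median of the 14 was -0.62.

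The tissue labels were read against marker genes. All 5 tested lens markers fell, with summed levels between 13185 and 14484 in WT and between 431 and 606 in DCKO, and Cryaa, Crybb3 and Foxe3 were undetected on all DCKO arrays. Of 6 surface ectoderm markers 2 rose, Krt8 and Trp63, and 4 did not pass. Their summed levels overlapped, lying between 7590 and 8746 in WT and between 7174 and 8295 in DCKO. The differences by gene were nevertheless above 0 for 5 of these markers and below 0 for 1 (median 1.05). At an unadjusted p under 0.05 in limma, 5 were higher and 1 was lower. The groups were separate for 4 that were higher and 1 that was lower in DCKO. Of 5 macrophage markers 3 fell by their brightest probe, with summed levels between 1815 and 2576 in WT and between 165 and 253 in DCKO, and Mpeg1 was undetected on all DCKO arrays. Endothelial markers had summed levels between 106 and 326 in WT and between 60.2 and 79.9 in DCKO, with 0 of 2 tested genes passing. Of these 2, 1 had a fitted difference of -2.29 with separate groups (unadjusted p under 0.05 in limma) and was detected in WT only. Tie1 was undetected on all 6 arrays. Optic vesicle markers had 0 of 2 passing. Of the erythroid markers 1 of 3 fell and all 3 differences were below 0. Their summed levels lay between 2246 and 2622 in WT and between 1125 and 1560 in DCKO. The summed levels of the lens, macrophage, endothelial and erythroid lists were lower on every DCKO array than on every WT array. So were those of the periocular mesenchyme and neural crest list, of which Pdgfra made up most in WT. By gene, 4 of the 5 tested markers of that list had differences above 0 (median 1.45). The part of these lists in the matrix decreases was not tested. Of the deleted genes, Crebbp (CBP) had 3 tested probes and none passed, the brightest being at log2 -0.76 (unadjusted p under 0.05 in limma). Ep300 (p300) had 4, of which 1 fell at least 2.87-fold (adjusted p = 0.0159). The brightest Ep300 probe did not pass (log2 -0.03, adjusted p = 0.984). Of the 7 tested probes of both genes, 4 had every DCKO array below every WT array, against 14.4% of all tested probes. Where these probes lie relative to the deleted exons is not given in the sources used here, so they do not check the labels.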

How the data were processed

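Tissue of 6 embryonic samples, 3 WT and 3 DCKO, was measured on 1 Illumina chip, which leaves no batch of chips to test. The deposited table holds, per probe and array, the mean bead intensity without background subtraction or normalization and a detection p-value against negative controls, which the authors exported from GenomeStudio. The authors also deposited processed intensities, used as an alternative (median 16.9 on each array, log2 values correlated at 0.995 to 0.996 with those used here). The 12 columns of bead numbers and bead errors were not used. Cubic spline normalization and the test of the methods were not run.

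Log2 values were computed by neqc's steps in limma 3.58.1 under R 4.3.3: normexp with parameters taken from the detection p-values, offset 16, and quantile normalization. Of 45281 probes, 34885 carried 1 symbol in the platform annotation, 18 several and 10378 none here; symbols were updated through Entrez identifiers. A probe was tested if its detection p was under 0.05 on 3 or more arrays. The 19552 such probes went into lmFit and eBayes without a block, two-sided, with Benjamini-Hochberg adjustment, and checked on simulated data. Median raw signals were 198 to 235 in WT and 193 to 201 in DCKO, and 18081 to 19769 probes were detected per array. Pearson correlations across probes were 0.930 to 0.934 within WT, 0.878 to 0.883 within DCKO and 0.837 to 0.857 between them. The number of arrays limits the precision.

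The members and lists were chosen with earlier results of these data known. Array values are given for called members, members whose probes disagree on the call, and up to 6 structural and 4 protease members with the largest differences among the rest. Values of Serpinh1, Matn2, Fn1, Htra1 and the dimmer Adamts1 probe, and of Hapln1, were added after they were seen. Promoter sequences are RefSeq's (GRCm38.p6).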

Additional observations from a re-analysis of the deposited data

How the results depend on the processing

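In the main analysis 895 tested probes, 3 structural genes and 3 protease or inhibitor genes were called. At a stricter adjusted p of 0.01 the tested probes called were 219, and at 0.1 they were 1760. With the replicate number as a block, 205 tested probes, 2 structural genes and 1 protease gene were called. Deviations of samples with the same number were correlated only weakly (0.033, 0.033 and 0.010), although each value was above those of unlike numbers (-0.033 to 0.0008). The numbers were not taken to pair the samples, which these small values do not settle. With the block the calls of Col1a2, Adamts18 and Adamtsl4 were lost (adjusted p = 0.0834, 0.0640 and 0.0546). With 1 array left out, 233 to 639 tested probes, 2 to 4 structural genes and 1 to 3 protease or inhibitor genes were called, and the medians ran from -0.740 to -0.529 for structural genes (main -0.66) and from -0.681 to -0.065 for proteases and inhibitors (main -0.34, and -0.065 without DCKO replicate 1). The lone protease call came without WT replicate 3. The other alternatives kept the counts of called genes and probes within 1.5 times and the medians negative, with 681 probes called without a filter and 1262 with trend and robust moderation. Without background correction the 6 called members remained called but their log2 differences shrank, to -2.41 for Tnc, -2.70 for Vit, -2.68 for Htra3, -2.14 for Adamts18, -0.80 for Adamtsl4 and 0.56 for Col1a2, so that the last 2 and those of Vit and Htra3 are smaller than the bounds given. Tnc, Vit and Htra3 remained called in all 16 alternatives of values, fit and samples, and Adamts18 was also lost without a filter (adjusted p = 0.0566). Has2 passed at the looser threshold of 0.1. Differences near 0 changed sign in 7 cases, in genes that were not called. Timp1 turned to -0.044 with 75th percentile scaling, and Fn1 to 0.158 with no between-array normalization. With 1 array left out, Timp1 ran from -0.065 to 0.376 (below 0 only when DCKO replicate 1 was left out), Fn1 from -0.229 to 0.263 (above 0 only in that same case), Htra1 from -0.215 to 0.015 (above 0 only when WT replicate 3 was left out) and Mmp2 from -0.158 to 0.756 (below 0 when DCKO replicate 2 or WT replicate 3 was left out). The causes were not tested. Signal near background limits the 11 untested members that have a probe, while Fbn1 and Fbn2 have none. A p that missed the threshold with 3 arrays against 3 does not show that a gene was unchanged.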
